A study of Mus musculus with 8 samples.

Results

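The cysteine-rich keratin-associated proteins are 37 of the 55418 genes measured here in mouse skin. They were taken by name, as every gene with a Krtap symbol outside families 6, 7, 8, 16, 19, 20, 21 and 22, and they fall into 18 numbered families. Skin RNA was sequenced in 8 libraries, from wildtype mice and from mice labelled hairloss, a spontaneously mutated line, at postnatal days 0, 16, 19 and 28, with 1 library per genotype and day. The sources used here name neither the mutated gene, the strain nor the number of animals in a library. The series title names the expression of keratins and their associated proteins in the mutated mice as its subject. Values are treated as FPKM, although no header states the unit. FPKM are fragment counts divided by the length of the transcript and the depth of the library, so levels of different genes are compared per length. In whole skin, fewer hair follicle cells and less RNA in each of them cannot be told apart.

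Keratin-associated proteins fill the space between the keratin filaments of the hair shaft and bind to them through disulfide bonds, which gives hair its strength and its resistance to solvents. They are made late in the differentiation of hair cortex and cuticle cells, after the hair keratins. The high-sulfur and ultrahigh-sulfur proteins described here carry the cysteines, and the families left out are mainly the small glycine- and tyrosine-rich proteins. Hair follicles of young mice pass through growth, regression and rest and then enter a new growth phase, and hair shaft genes are transcribed in the growth phase.

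The label cysteine-rich was checked against the coding sequences, which were taken from the mouse gene annotation on build mm10. Cysteine codons made up a median of 30.6% of the codons of the 37 genes, against 2.13% over 21503 coding genes. The share was 30% or more in 21 genes and 20% or more in 28. It was under 15% in 9 genes, 8 of them on chromosome 16, where the share ran from 4.0% in Krtap15 to 12.7% in Krtap13. The ninth was Krtap29-1 of chromosome 11 at 14.6%. Krtap15 lay under the 99th percentile of all coding genes, 11.1%, as did 4 others, so the label does not describe all 37 genes. In the 17 genes of the left-out families with a coding sequence the median was 8.1%. Their range was 0.0% to 20.1%, the highest in Krtap16-1, and 4 of them were above 15%.

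**Figure D1:**
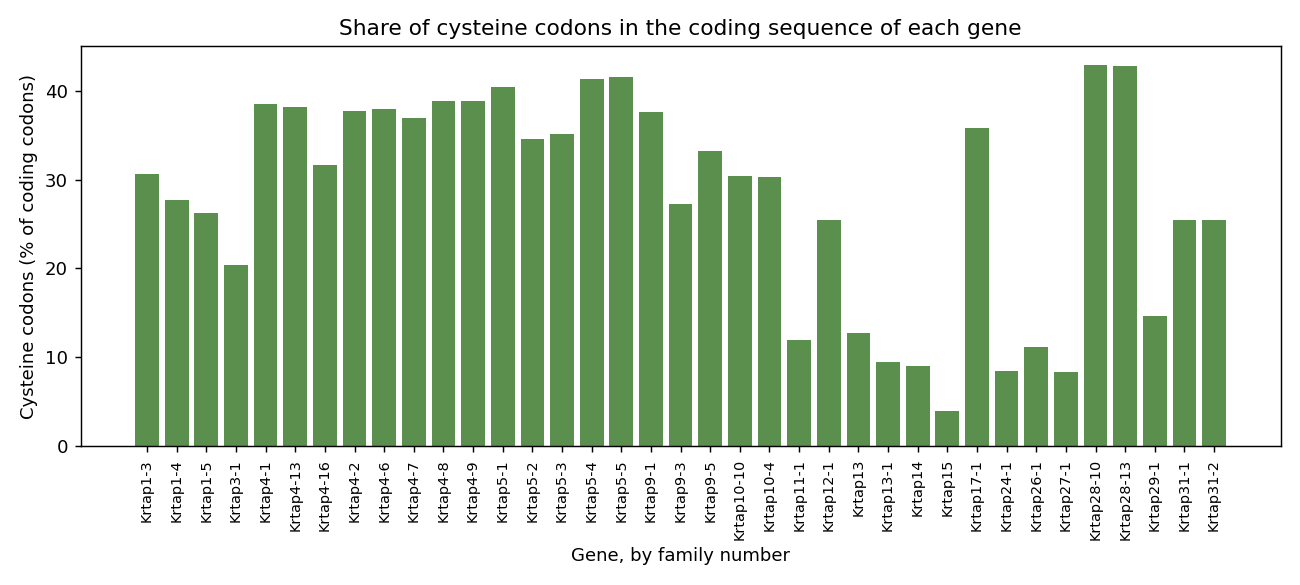
Each bar is 1 of the 37 genes, in order of family number, and its height is the percentage of its codons that encode cysteine. Family 28 stands highest, up to 42.9% in Krtap28-10, followed by Krtap5-5 at 41.5%. The 8 genes of chromosome 16 (families 11, 13, 14, 15, 24, 26 and 27) are all under 15%.

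The stretch of 30 codons richest in cysteine codons was sought in each of these genes and not in others. It is printed for 6 genes on which the results below turn, read 5′ to 3′ from the coding strand with cysteine codons in capitals. Krtap4-1 (chr11:99627224-99628238, minus strand) has the repeat of paired cysteines typical of the ultrahigh-sulfur proteins of the hair cortex, with 16 cysteine codons in the 30. Krtap28-10 (chr1:83041524-83042480, minus strand) mostly alternates cysteine with glycine codons and has 15. Krtap5-2 (chr7:142174535-142176005, minus strand), Krtap5-3 (chr7:142201364-142203015, plus strand) and Krtap5-5 (chr7:142228795-142229971, minus strand) also have 15 each. Krtap15 (chr16:88820215-88829844, plus strand) has 3.
Krtap4-1: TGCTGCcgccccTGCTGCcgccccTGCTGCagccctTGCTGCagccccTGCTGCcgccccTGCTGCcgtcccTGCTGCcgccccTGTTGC
Krtap28-10: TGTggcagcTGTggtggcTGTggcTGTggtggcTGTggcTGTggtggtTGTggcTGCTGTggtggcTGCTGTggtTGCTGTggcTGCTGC
Krtap5-2: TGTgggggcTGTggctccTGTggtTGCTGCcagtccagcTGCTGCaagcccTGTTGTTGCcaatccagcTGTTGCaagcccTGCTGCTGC
Krtap5-3: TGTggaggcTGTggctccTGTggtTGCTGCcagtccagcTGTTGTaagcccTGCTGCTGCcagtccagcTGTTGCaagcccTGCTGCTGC
Krtap5-5: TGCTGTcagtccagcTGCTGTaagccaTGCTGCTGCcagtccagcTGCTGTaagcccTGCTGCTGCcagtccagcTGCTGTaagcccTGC
Krtap15: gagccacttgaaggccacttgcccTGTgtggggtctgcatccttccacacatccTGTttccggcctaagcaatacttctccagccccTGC
The windows of Krtap5-2 and Krtap5-3 end in the same run of paired and triple cysteine codons. The windows of Krtap5-1, Krtap5-4 and Krtap5-5 hold this run too. Over the whole coding sequence Krtap5-2 and Krtap5-3 shared 75.3% of aligned bases, and Krtap5-4 and Krtap5-5 shared 80.3%.

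Reads of near-identical genes can be placed on either copy, so single values within a family are less certain than the family sum. Over 48 pairs of genes within a family the median identity was 66.4%, with a range of 31.6% to 98.9%, against a median of 47.9% over 618 pairs between families. The most alike were Krtap31-1 and Krtap31-2 at 98.9%, Krtap4-1 and Krtap4-2 at 95.5%, and Krtap10-10 and Krtap10-4 at 90.3%. Exons of 3 members also overlap another gene. Krtap10-10 shares 567 of its 1306 exon bases with Gm2696, Krtap15 shares 201 of 1052 with the noncoding 4930553J12Rik, and Krtap24-1 shares 150 of 1575 with Gm49688 on the opposite strand. The sources used here do not say whether counting used strand.

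The libraries held an estimated 31600000 to 43700000 fragments, at which 3 fragments of 1 of these genes correspond to 0.0416 to 0.16 FPKM, counting error only. Values at or under that floor are given without a fold. Transcripts of the sex chromosomes differed between the libraries compared. Ddx3y, of the Y chromosome, stood at 15.8 to 20.4 FPKM in 6 libraries and was listed at 0 in the hairloss libraries of days 0 and 28. Xist, the RNA of the silenced X chromosome, reached 51.3 FPKM in wildtype skin of day 0 and 12.4 FPKM in that of day 19, so both libraries held Xist as well as Y-linked RNA. It reached 76.1 and 50.2 FPKM in hairloss skin of days 0 and 28 and was under 0.2 FPKM in the other 4 libraries. The genotypes matched in both transcripts on day 16 alone, and the part of sex in the differences at other days was not tested. Of the 37 genes, Krtap13 was listed at 0 or stood under 0.2 FPKM in every library, leaving 36 for the description of levels.

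Summed over the 37 genes, transcripts of these proteins were abundant in wildtype skin on days 16 and 28 and near the floor on day 0. The sum was 11 FPKM in wildtype against 7.9 FPKM in hairloss skin on day 0. It was 8205 and 1439 FPKM on day 16, 65.6 and 557 FPKM on day 19, and 6736 and 1.64 FPKM on day 28. Hairloss skin thus held less on days 16 and 28 and more on day 19. As a share of the FPKM of coding genes the sum was 1.6% and 0.295% on day 16, 0.0161% and 0.122% on day 19, and 1.34% and 0.000377% on day 28. At day 16, 20 members reached 100 FPKM in wildtype and 4 in hairloss skin, and on day 28, 15 did so in wildtype and 0 in hairloss skin, where 25 were listed at 0.

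**Figure D2:**
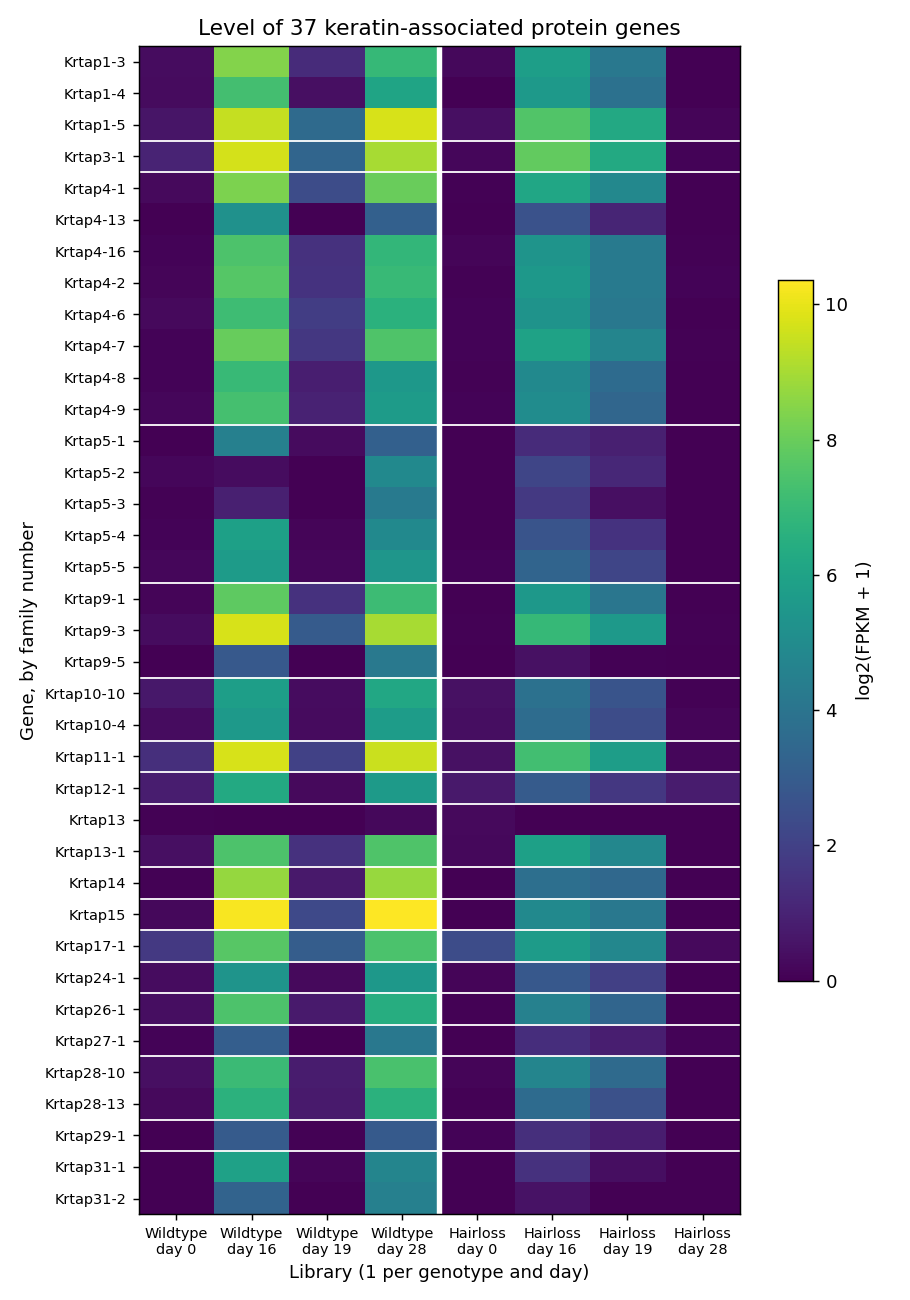
Rows are the 37 genes in order of family number, with white lines between families, columns are the 8 libraries, and colour is the level as log2(FPKM + 1). The wildtype libraries of days 16 and 28 are bright in most rows, hairloss is brightest on day 16 and dimmer on day 19, and the hairloss column of day 28 is dark throughout.

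Relative to other hair shaft genes the sum kept a similar size in both genotypes on days 16 and 19 and in wildtype on day 28. It was 0.34 and 0.309 times the summed FPKM of the 18 genes of the left-out families in wildtype and hairloss skin on day 16, 0.293 and 0.302 times on day 19, and 0.368 times in wildtype on day 28. Against the hair shaft keratins it was 1.84 and 1.47 times on day 16, 1.91 and 1.46 times on day 19, and 1.67 times in wildtype on day 28. Krt85, a listed type II hair keratin, was not found by name and is missing from the keratin sum at every day. The member sum lacks 3 genes of the same families without a symbol in the files. Genes of the left-out families were taken with or without a symbol. In the libraries with few hair transcripts the ratios were others. On day 0 the sum was 1.09 and 2.31 times that of the left-out families and 0.318 and 0.306 times that of the hair keratins. In hairloss skin on day 28 it was 1.06 times the left-out families and 0.0818 times the hair keratins, and there the summed hair keratins were 20.1 FPKM, of which 12.7 FPKM was Krt35, a keratin made early in the hair matrix and cuticle.

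The members of the keratin-associated protein cluster on chromosome 11, spanning chr11:99566027-99993994 within the type I keratin region, held most of the sum, at 4768 of the 8205 FPKM in wildtype skin on day 16. They belong to families 1, 3, 4, 9, 17, 29 and 31, and families 1, 3, 4 and 9 encode proteins known from the hair cortex. Family 4, the largest with 8 genes, summed to 1396 and 321 FPKM in wildtype and hairloss skin on day 16, 14.6 and 127 FPKM on day 19, and 882 and 0.142 FPKM on day 28. Its highest member by mean, Krtap4-1, stood in wildtype skin at 0.213, 315, 4.35 and 256 FPKM on days 0, 16, 19 and 28, the order of days in which values of a genotype are listed throughout. In hairloss skin Krtap4-1 stood at 0.031, 69.2 and 27.5 FPKM and was listed at 0 on day 28. The wildtype library was the higher on days 16 and 28 and the hairloss library on day 19, as in the whole group. Its lowest member, Krtap4-13, stood at 37.2 and 5.09 FPKM on day 16 and at 8.1 FPKM in wildtype on day 28. Krtap4-13 reached 1.09 FPKM in hairloss skin on day 19 and was listed at 0 in the other 4 libraries. All 8 members of the family kept the same order of genotypes on each of days 16, 19 and 28.

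Family 1, of high-sulfur cortex proteins, summed to 1201 and 290.2 FPKM on day 16, 12.7 and 105 FPKM on day 19, and 1046 and 0.102 FPKM on day 28. Most of it was Krtap1-5, at 0.489, 700.2, 11 and 859 FPKM in wildtype skin and at 0.332, 188, 74.7 and 0.102 FPKM in hairloss skin on days 0, 16, 19 and 28. Krtap1-5 was the highest of all members in wildtype skin on day 19. Its neighbour Krtap1-4 had the widest ratio between genotypes at that day, 38.3-fold, from 0.352 FPKM in wildtype to 13.5 FPKM in hairloss skin. Family 3 has 1 named gene, Krtap3-1, which encodes a short high-sulfur protein. Krtap3-1 stood at 1.04, 820.2, 9.34 and 509 FPKM in wildtype, against 0.144, 237, 77.5 and 0.0662 FPKM in hairloss skin, and it led all members in the hairloss libraries of days 16 and 19. A further 3 rows carry no symbol in the files and are Krtap2-4, Krtap3-2 and Krtap3-3 in the annotation. They were not counted as members and are in none of the member or family sums. In wildtype skin on day 16 they stood at 157, 199 and 558 FPKM. All 3 were at least 2-fold lower in hairloss skin on days 16 and 28 and at least 2-fold higher on day 19.

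In family 9, also of the cortex, Krtap9-3 stood at 0.275, 847, 6.95 and 521 FPKM in wildtype, against 0.0481, 121, 47.4 and 0.0374 FPKM in hairloss skin. Krtap9-5 was far lower and had another order of days, with 6.5 FPKM on day 16 and 17.4 FPKM on day 28 in wildtype skin. Krtap17-1, whose human counterpart is a protein of the hair cuticle, was the only member above 1 FPKM in both genotypes on day 0. It stood at 2.32, 202, 7.24 and 174 FPKM in wildtype, against 4.37, 51.0, 27.1 and 0.206 FPKM in hairloss skin. Its day 0 level was the highest of the 37 genes in both libraries and was under 2-fold higher in hairloss skin on the log2(FPKM + 1) scale, by 0.69. Krtap29-1 stayed low, at 0.0283, 6.92, 0.0548 and 6.62 FPKM in wildtype, against 0.0633, 1.65 and 0.764 FPKM in hairloss skin before it was listed at 0 on day 28.

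The near-identical pair Krtap31-1 and Krtap31-2 had the widest ratio between genotypes on day 16 among the chromosome 11 families. Krtap31-1 stood at 60.4 FPKM in wildtype against 1.78 FPKM in hairloss skin on day 16, at 0.0888 and 0.295 FPKM on day 19, and at 25.6 FPKM in wildtype on day 28. Krtap31-2 stood at 8.89 and 0.425 FPKM on day 16 and at 22.1 FPKM in wildtype on day 28. Both were listed at 0 in the other libraries. Krtap31-1 was thus the higher copy on day 16 and both were close on day 28, but at 98.9% identity the split between them is uncertain. Their sum was 69.3 and 2.21 FPKM on day 16, a ratio of 31.4, and 47.7 FPKM in wildtype on day 28.

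**Figure D3:**
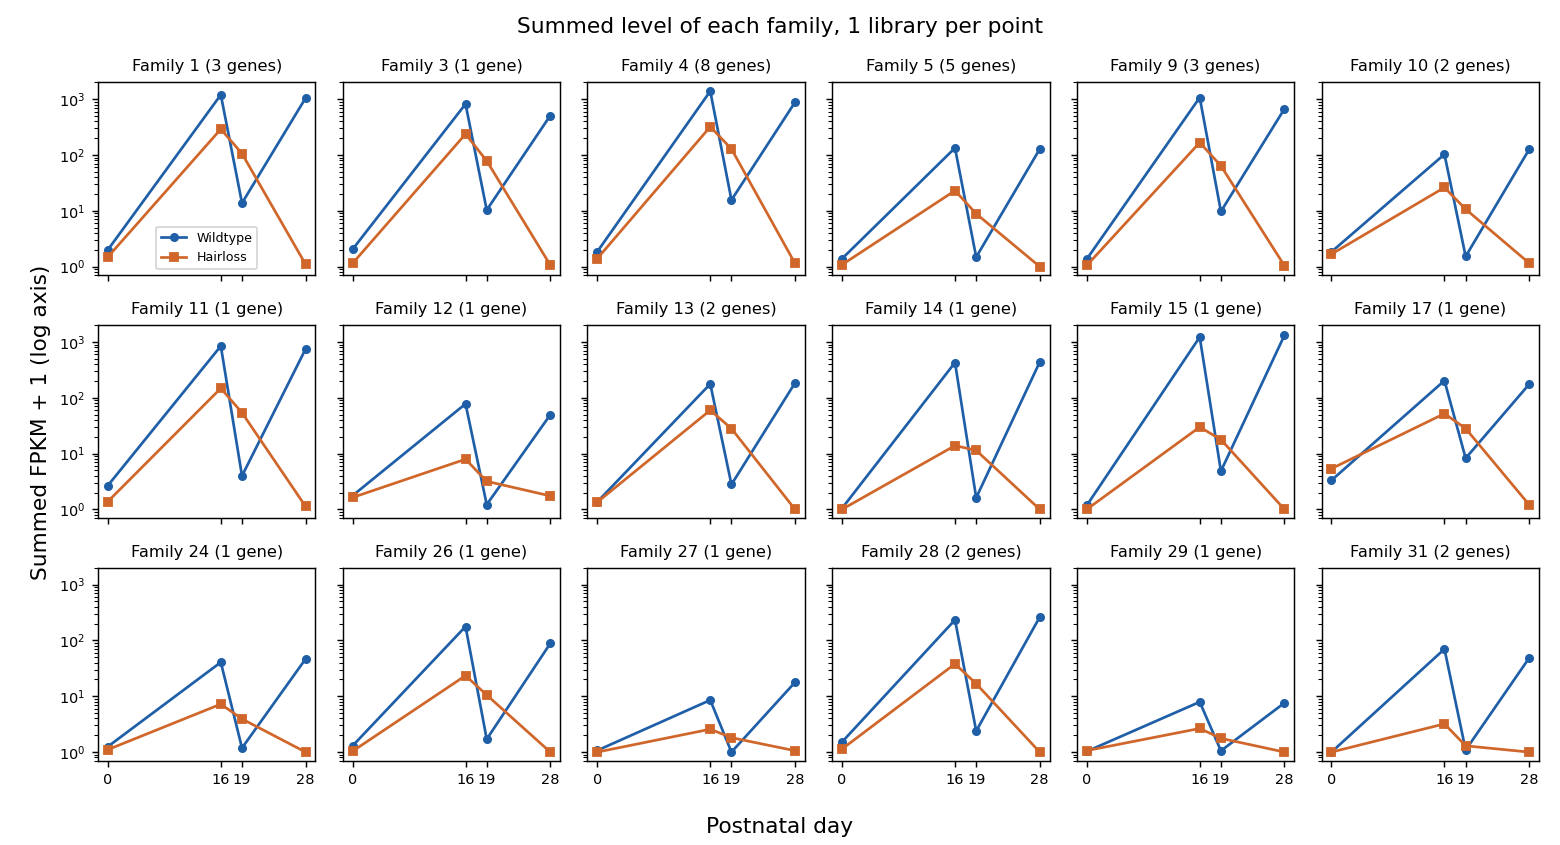
Each panel is a family, with postnatal day on the horizontal axis and the family's summed FPKM + 1 on a log axis, wildtype as blue circles and hairloss as orange squares, 1 library per point and so no error bars. Every family is highest in wildtype on days 16 or 28 with a low point on day 19 between them, while hairloss declines from day 16 through day 19 to day 28.

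The 8 members on chromosome 16, at chr16:88610705-89571183, encode proteins with fewer cysteines, and 2 of them had the widest differences on day 16 on the log2(FPKM + 1) scale. Krtap15 stood at 0.175, 1222, 3.84 and 1320.1 FPKM in wildtype skin, the highest of all members on days 16 and 28. In hairloss skin it stood at 28.9 and 16.8 FPKM on days 16 and 19 and was listed at 0 on days 0 and 28. Krtap15 was thus 42.2-fold lower in hairloss skin on day 16, while on day 19 its hairloss level was 4.38-fold higher than in wildtype. Krtap14, its neighbour, stood at 0.0441, 427, 0.614 and 436 FPKM in wildtype, against 12.9 and 10.4 FPKM in hairloss skin on days 16 and 19, and was listed at 0 in the hairloss libraries of days 0 and 28. Its ratio on day 16 was 33.0-fold, close to the 33.9-fold of Krtap31-1 on chromosome 11. Both ratios lay outside the quartiles of the 36 members above the floor on day 16, which were 4.02 and 8.05 around a median of 4.88.

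Of the other chromosome 16 genes, Krtap11-1, which encodes a protein that binds hair keratins in the cortex, stood at 1.67, 844, 2.98 and 744 FPKM in wildtype, against 0.381, 147, 52.9 and 0.131 FPKM in hairloss skin. Its difference on day 19, 3.76 on the log2(FPKM + 1) scale, was the widest of the members. Krtap13-1 stood at 0.326, 176, 1.79 and 183 FPKM in wildtype, against 0.151, 58.8 and 27.0 FPKM in hairloss skin, then at 0 on day 28. At 2.99-fold, Krtap13-1 had the narrowest ratio on day 16 of the 34 members that were higher in wildtype skin. Krtap26-1 stood at 0.293, 177, 0.704 and 87.5 FPKM in wildtype, against 0.0356, 22.5 and 9.53 FPKM in hairloss skin, then at 0. Krtap24-1, whose human counterpart lies in the cuticle, stood at 0.254, 39.7, 0.185 and 45.6 FPKM in wildtype, against 0.106, 6.24 and 2.93 FPKM in hairloss skin, then at 0. Krtap27-1 was low, at 0.0699, 7.55, 0 and 16.8 FPKM in wildtype, against 0, 1.57, 0.813 and 0.0583 FPKM in hairloss skin. Apart from Krtap13, all of them were higher in wildtype on days 16 and 28 and higher in hairloss skin on day 19.

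The families of chromosomes 10 and 1 followed the same order. Family 10, whose human counterparts are proteins of the hair cuticle, was led by Krtap10-10, at 0.576, 54.7, 0.274 and 73.8 FPKM in wildtype, against 0.372, 13.4, 5.38 and 0.0404 FPKM in hairloss skin. Krtap12-1, of the same cluster, stood at 0.76, 76.8, 0.217 and 48.6 FPKM in wildtype, against 0.632, 6.92, 2.18 and 0.743 FPKM in hairloss skin. Its level in the hairloss library of day 28 was the highest of the members and close to both day 0 values. Krtap28-10, with the highest cysteine share, stood at 0.326, 134, 0.725 and 165 FPKM in wildtype, against 0.104, 25.6 and 10.9 FPKM in hairloss skin, then at 0. Across the 37 genes the cysteine share showed almost no relation to the difference between genotypes, with a Spearman correlation of -0.04 on day 16 and -0.02 on day 19, a description over genes that share libraries.

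The Krtap5 family on chromosome 7, at chr7:142174535-142304594, encodes ultrahigh-sulfur proteins of the hair cuticle, and its 5 genes did not share 1 order of levels. Krtap5-2 stood at 0.127, 0.252, 0.0173 and 29.5 FPKM in wildtype skin, and in hairloss skin at 3.55 and 1.24 FPKM on days 16 and 19 and at 0 on days 0 and 28. It was thus low in wildtype skin on day 16, when 34 other members were above 5 FPKM, and reached its single high level on day 28. Krtap5-3 stood at 0.045, 0.869, 0 and 18.1 FPKM in wildtype, against 2.33 and 0.352 FPKM in hairloss skin on days 16 and 19, with 0 on days 0 and 28. These were the only members higher in hairloss than in wildtype skin on day 16, by 14.1-fold for Krtap5-2 and 2.68-fold for Krtap5-3.

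The other 3 genes of the family had the order of the remaining members. Krtap5-5, the highest, stood at 0.132, 51.3, 0.127 and 42.3 FPKM in wildtype, against 0.0823, 9.27, 3.51 and 0 FPKM in hairloss skin. Krtap5-4 stood at 58.4 and 5.48 FPKM on day 16 and at 29.1 FPKM in wildtype on day 28. Krtap5-1 stood at 22.1 and 1.42 FPKM on day 16 and at 7.99 FPKM in wildtype on day 28. Along the chromosome Krtap5-2 and Krtap5-3 lie next to each other at one end, followed by Krtap5-5, Krtap5-1 and Krtap5-4. Between days 16 and 28 the wildtype level of Krtap5-2 was 117-fold higher and that of Krtap5-3 20.9-fold higher, while the median over 36 members was 0.819. Next were Krtap9-5 at 2.68, Krtap31-2 at 2.49 and Krtap27-1 at 2.22, and the lowest was Krtap4-13 at 0.218.

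**Figure D4:**
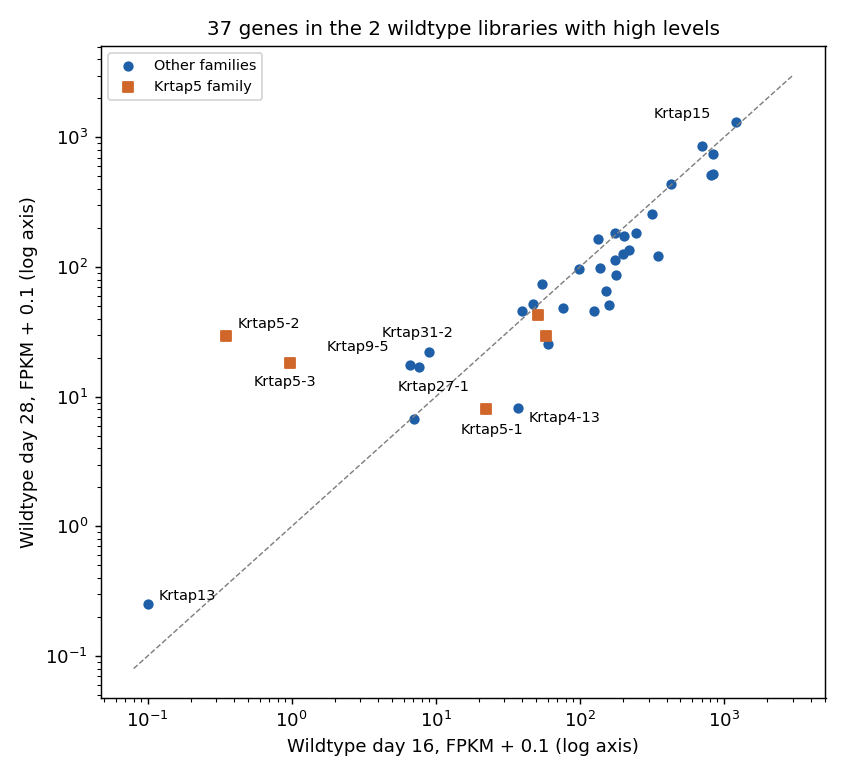
Each point is 1 gene, with its level in wildtype skin on day 16 on the horizontal and on day 28 on the vertical axis, both as FPKM + 0.1 on log axes, and the dashed line marks equal levels. Orange squares are the Krtap5 family, of which Krtap5-2 and Krtap5-3 lie far above the line at 29.5 and 18.1 FPKM on day 28, while most genes lie near or just under it.

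The 250 bases before the transcription start are shown for Krtap5-2 and Krtap5-3, which differed from the other members, and for Krtap15, the most abundant. They come from RefSeq on build GRCm38.p6, read 5′ to 3′ on the gene's strand, with any match to TATAAA or its reverse complement TTTATA in capitals. The windows are chr7:142176006-142176255 for Krtap5-2, chr7:142201114-142201363 for Krtap5-3 and chr16:88828759-88829008 for Krtap15. TATAAA is the core of the TATA box, which in many strongly transcribed genes lies shortly before the start.
Krtap5-2: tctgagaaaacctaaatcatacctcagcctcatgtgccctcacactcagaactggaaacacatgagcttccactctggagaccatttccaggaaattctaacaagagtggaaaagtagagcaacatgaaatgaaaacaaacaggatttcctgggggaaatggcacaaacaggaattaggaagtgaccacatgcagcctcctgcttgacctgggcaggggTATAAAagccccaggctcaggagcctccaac
Krtap5-3: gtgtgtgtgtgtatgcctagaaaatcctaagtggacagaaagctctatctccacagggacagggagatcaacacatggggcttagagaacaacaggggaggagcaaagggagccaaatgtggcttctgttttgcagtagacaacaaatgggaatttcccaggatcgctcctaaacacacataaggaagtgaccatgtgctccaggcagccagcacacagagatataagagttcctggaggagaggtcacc
Krtap15: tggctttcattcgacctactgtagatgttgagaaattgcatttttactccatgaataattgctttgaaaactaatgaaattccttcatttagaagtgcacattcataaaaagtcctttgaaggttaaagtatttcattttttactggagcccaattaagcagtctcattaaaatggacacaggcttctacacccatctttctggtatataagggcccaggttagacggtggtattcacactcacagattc
Krtap5-2 has TATAAA starting 31 bases before the start, and neither of the others holds these exact letters in the window. Both hold the similar letters TATAAG near its end, which the search did not count, so a TATA box is not shown to be absent. The upstream sequences of Krtap5-2 and Krtap5-3 were identical at 51.2% of aligned bases, within the 43.9% to 58.1% of all pairs in the family.

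Of the 37 members, 32 matched a RefSeq start. TATAAA on either strand was in 27 of the 32 windows, 84.4%, against 13.0% of 27025 windows of the same length before all gene starts. On the gene's own strand and between 45 and 15 bases before the start it was in 22 of 32, 68.8%, against 2.4% of all windows. The 5 members without it anywhere in the window, on either strand, were Krtap5-3, Krtap5-4, Krtap14, Krtap15 and Krtap27-1. Only the exact letters were counted, and near the end of the window Krtap5-3, Krtap14 and Krtap15 hold TATAAG and Krtap27-1 holds TATAAT. Among the 5 are Krtap14 and Krtap15, with the widest differences on day 16 on the log2(FPKM + 1) scale, and Krtap5-4, whose levels had the order of most members. CTTTGA, the core of the sequence bound by LEF and TCF proteins, was in 7 of 32 windows on either strand, 21.9%, against 14.0% of all. GACGC was in 3 windows, 9.4%, against 22.6%. A match is a description of letters and shows no binding. The windows depend on the RefSeq start, which lay more than 10 bases from the GENCODE start in 9 of the 32 members, 3 of them among the 5 without TATAAA. It lay 8794 bases downstream in Krtap15, 47 bases upstream in Krtap5-4 and 53 bases upstream in Krtap27-1, so a window of these genes may miss letters that lie next to the other start. In Krtap5-2 and Krtap5-3 both starts were the same.

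Counts of members past 2-fold were taken on log2(FPKM + 1), for genes of at least 1 FPKM in either library of a day. With 1 library in each group there is no test at a single day. At day 16, 34 members were at least 2-fold lower in hairloss skin and 1 was higher, with 36 members compared, against 7.39% lower and 5.34% higher of the 16186 genes compared. The median difference over the 37 members was -2.25, against 0 over all genes. At day 19, 29 of 29 members compared were at least 2-fold higher and 0 lower, against 6.53% higher and 5.76% lower of 16656 genes, and the median was 2.29. At day 28, 36 of 36 were at least 2-fold lower and 0 higher, against 6.42% lower and 5.6% higher of 16021 genes, with a median of -6.17. The 1 FPKM filter can be passed through 1 library alone, which makes a 2-fold difference likely. On day 19, 29 members reached 1 FPKM in hairloss and 14 in wildtype skin. On day 28, 36 reached it in wildtype and 0 in hairloss skin. The shares among members compared are thus no independent measure of direction. Without the filter, 29 of the 37 members passed 2-fold at day 19 and 36 at day 28. On day 0 only 3 members reached 1 FPKM and none passed 2-fold, against 1.49% higher and 1.58% lower of 16685 genes, with a median of -0.11. That count depends on the pseudocount of 1, since in FPKM Krtap3-1 was 7.23-fold and Krtap11-1 4.38-fold lower in hairloss skin, and with a pseudocount of 0.1 the number lower by 2-fold was 2.

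**Figure D5:**
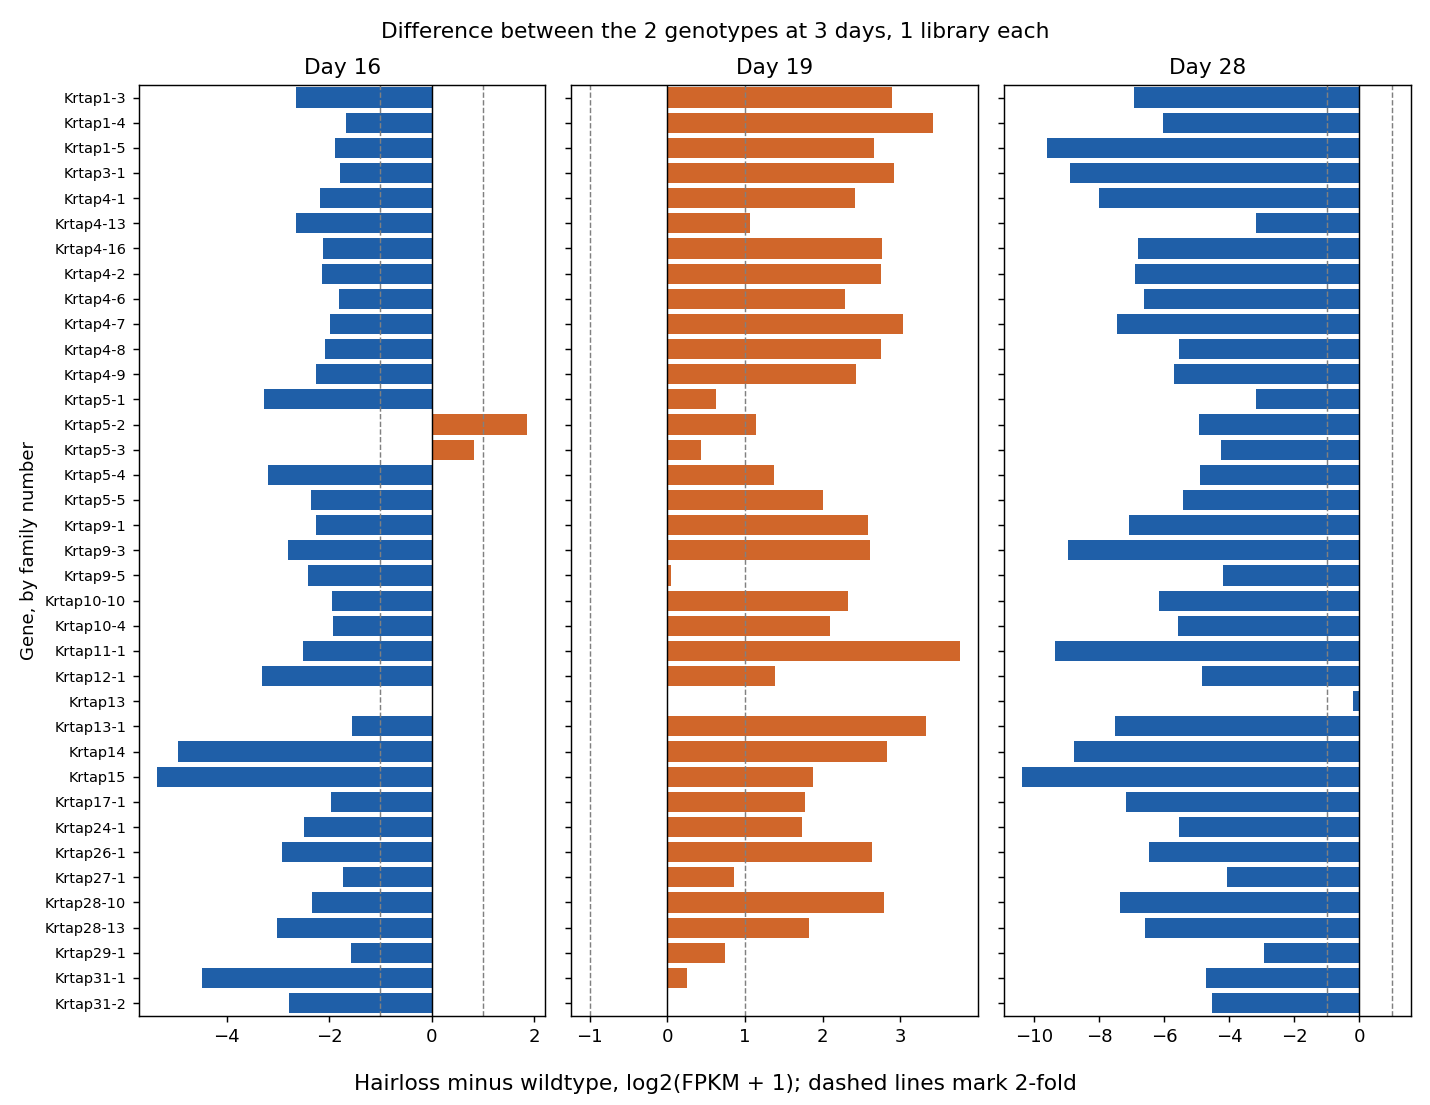
Bars are the hairloss minus wildtype difference of each of the 37 genes on days 16, 19 and 28 in log2(FPKM + 1), orange above 0 and blue under 0, with 1 library per genotype, dashed lines at 2-fold and a separate scale in each panel. At day 16 all bars but those of Krtap5-2, Krtap5-3 and Krtap13 point down, on day 19 none points down, and on day 28 all point down.

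The smallest of the differences belonged to members of low level. At day 19 the difference was 0 for Krtap13 and Krtap31-2, listed at 0 in both libraries, and 0.05 for Krtap9-5. At day 28 the widest were Krtap15 at -10.37, Krtap1-5 at -9.61 and Krtap11-1 at -9.36, and the smallest were Krtap13 at -0.21, Krtap29-1 at -2.93 and Krtap5-1 at -3.17. These sizes follow the wildtype level, since the hairloss library of day 28 was at or under the floor for 32 of the 37 members. The 5 above it were Krtap12-1 at 0.743 FPKM, Krtap17-1 at 0.206, Krtap11-1 at 0.131, Krtap10-4 at 0.115 and Krtap1-5 at 0.102.

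In both genotypes the level on day 16 exceeded that on day 19, by far more in wildtype skin. Over the 29 members above the floor in both wildtype libraries the median ratio of day 16 to day 19 was 161, from 27.8 in Krtap17-1 to 695 in Krtap14. Over 34 members in hairloss skin the median was 2.51, from 1.25 in Krtap14 to 6.62 in Krtap5-3. The order of the genes by level was alike in libraries with expression, with a Spearman correlation over the 37 genes of 0.93 between the wildtype libraries of days 16 and 28, 0.89 between the genotypes on day 16, 0.96 between them on day 19 and 0.98 between the hairloss libraries of days 16 and 19. It was 0.53 between the wildtype libraries of days 0 and 16. Genes share their library and their length in such a correlation, and it is given as a description.

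A test was possible only over days, with limma on all 8 libraries and 18724 genes. With the day as a block, 0 of the 36 members tested passed an adjusted p of 0.05 for genotype, against 0.0374% of all genes. An unadjusted p of 0.05 was reached by 0 members, against 2511 of the 18724 genes. The median difference of the members was -1.63 and their lowest adjusted p 0.436. Their direction differs between days 16 and 19, which this fit averages. Without day 28 the median was 0.03. With the genotype as a block, 0 members passed for the step from day 0 to day 16, against 8.0% of all genes, although all 36 were higher on day 16 with a median of 5.72. The lowest adjusted p of limma was that of Krtap4-13, 0.101, for a difference of 3.93 with a standard error of 1.18. For this step 2 of the 36 members reached an unadjusted p of 0.05, against 6260 of the 18724 genes, a larger share. For the step from day 16 to day 19, 0 members passed against 0.016% of all genes, with a median of -3.55. An unadjusted p of 0.05 was reached by 1 member, against 975 of the 18724 genes. For the step from day 19 to day 28, 0 members passed against 0.0% of all genes. An unadjusted p of 0.05 was reached by 0 members, against 1910 of the 18724 genes, and the median of the members was 1.04. That median averages the genotypes, whose summed levels moved by 6.66 in wildtype and by -7.72 in hairloss skin, as log2 of summed FPKM + 1. Such unlike moves of the genotypes also enter the error of each step, so 0 members passing does not show that levels stayed. With 3 residual degrees of freedom these tests leave the differences of single days without an error of their own.

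Other genes of the hair follicle were counted by the same rule. Their lists were taken from knowledge of the tissue, with earlier results of these data known. Among the 9 type I keratins of the shaft, 8 were at least 2-fold lower in hairloss skin on day 16, 7 higher on day 19 and 9 lower on day 28. Among the 5 type II keratins found by name, 4 were lower, 5 higher and 5 lower at those days. The genes of the left-out families were lower in 16 of 18 on day 16, higher in 17 on day 19 and lower in 18 on day 28, with medians of -2.49, 2.74 and -9.18. Of 10 other cuticle and cortex genes, 5 were lower on day 16, 7 higher on day 19 and 8 lower on day 28. The order of the members did not hold for all of them, as Tgm5, a transglutaminase, differed by 0.42, -0.81 and 0.88 and Lypd3 by 0.64, 1.75 and 0.58 on those days. Among them S100a3, a cysteine-rich calcium-binding protein of the cuticle, stood at 1655 and 463 FPKM on day 16, 7.93 and 191 FPKM on day 19, and 1767 and 7.67 FPKM on day 28. Of 13 genes of the inner root sheath, which surrounds and guides the growing shaft, 8 were lower and 1 higher on day 16, 12 higher on day 19 and 13 lower on day 28. The 3 of highest mean level, Krt71, Krt25 and Krt27, differed by -0.49, -0.17 and -1.02 on day 16. The 1 sheath gene higher on day 16 was Tchh, listed at 0 in wildtype but measured at 1419 FPKM in hairloss skin. An exact 0 may reflect an estimate that failed.

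Regulators of the hair matrix differed less. Of the 16, 8 were at least 2-fold lower on day 16, 6 higher on day 19 and 9 lower on day 28. Hoxc13, which activates hair keratin and Krtap genes, stood at 40.0 and 16 FPKM on day 16, 3.04 and 9.28 FPKM on day 19, and 32.7 and 4.13 FPKM on day 28. Foxn1, a regulator of shaft differentiation lost in nude mice, stood at 20.4 and 5.16 FPKM, 1.36 and 3.83 FPKM, and 17.4 and 1.19 FPKM at those days. Both remained above 1 FPKM in the hairloss library of day 28, where every member was under it. Hr, the gene of the hairless protein, stood at 156 and 145 FPKM, 79.2 and 159 FPKM, and 48.7 and 60.8 FPKM.

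Most genes of cysteine supply and disulfide formation did not differ by 2-fold. Of 17 compared, 3 were lower on day 16, 1 was higher on day 19 and 5 were lower on day 28, with medians of -0.06, 0.31 and -0.48. Slc7a11, which imports cystine, was the 1 on day 19, at 0.175 FPKM in wildtype against 7.63 FPKM in hairloss skin. Ctns, the lysosomal cystine exporter, stood at 39.9 and 13.4 FPKM on day 16 and at 24.4 and 6.69 FPKM on day 28. The disulfide isomerase P4hb stood at 146 and 209 FPKM on day 16 and at 168 and 172 FPKM on day 28.

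Markers of other cells of the skin also differed between the libraries. Summed epidermal keratins stood at 3946 and 10796 FPKM in wildtype and hairloss skin on day 16, 4901 and 11545 FPKM on day 19, and 2544 and 9723 FPKM on day 28, with 3, 3 and 3 of 7 genes at least 2-fold higher and 1, 2 and 0 lower. Companion layer and wound keratins were higher in 4 of 5, 5 of 5 and 2 of 5 genes and lower in 1, 0 and 1. The 1 lower gene was Krt75, which differed by -1.18, 1.77 and -3.69 on days 16, 19 and 28, the order of the members. The sums of the 5 genes were 1881 and 5546, 637 and 5361, and 1098 and 1129.8 FPKM. Among 8 neutrophil markers 5, 4 and 3 were higher, with sums of 152 and 3756, 14.4 and 6519, and 48.2 and 521 FPKM. Most of these sums was S100a8 and S100a9, which wounded keratinocytes also make. Cxcr2, a chemokine receptor of neutrophils, stood at 0.269 against 7.59 FPKM on day 16 and 0.0509 against 5.81 FPKM on day 19, while Ly6g was listed at 0 in wildtype on days 16 and 28 and in hairloss skin on days 19 and 28. Macrophage markers were higher in 8 of 8 on day 16, at 201 and 664 FPKM in sum, and in 0 on days 19 and 28.

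Melanocyte markers, of the pigment cells that serve the growing shaft, were lower in 2, 1 and 8 of 8 genes, with sums of 65.2 and 44.5, 46.2 and 30.8, and 529 and 155 FPKM. Skeletal muscle markers were lower in 3 and 5 of 8 on days 16 and 19 and higher in 7 on day 28, adipocyte markers lower in 4 of 6 on day 19 and higher in 2 on day 28, and dermal fibroblast markers lower in 1 of 6 on day 16. The fibroblast counts of the later days include exact zeros of abundant collagen genes, which may be failed estimates. Col1a1 was listed at 0 in wildtype on days 19 and 28, and Col3a1 at 0 in wildtype on day 19 and in hairloss skin on day 28. Without these genes, left out after their values were seen, 0 of 4 fibroblast markers were higher and 3 lower on day 19, and 1 was higher and 1 lower on day 28. Muscle sums were 1181 and 568, 4981 and 2368, and 2328 and 5419 FPKM. RNA of these markers thus differed between the genotypes on days when the members did, and its part in their differences was not tested.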

How the data were processed

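The authors deposited 1 value per gene for each library. These are treated as FPKM because Cuffdiff is named, with cutadapt and build mm10, per the submitters' processing notes, and because their range fits, but no header states the unit. Skin RNA was purified on RNeasy columns and made into TruSeq libraries, per the labels. The sources used here name neither the aligner nor any scaling between libraries.

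Genotype and day come from the sample labels. Differences are on log2(FPKM + 1), with the rule of at least 2-fold and 1 FPKM in either library. limma 3.58.1 in R 4.3.3 (trended, robust) was fitted to the 18724 genes that reached 1 FPKM in a library, with Benjamini-Hochberg adjustment, two-sided, and was tested on simulated data. Fragment totals were estimated from the spacing of the lowest values. Coordinates and coding sequences are from GENCODE M21, and coding and upstream identities are from pairwise alignment.

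The 37 members and all lists were chosen with earlier results of these data known. The named genes are each family's highest member by mean, the lowest in families of 4 or more, members opposite to most, the 3 widest and 3 smallest differences at days 16, 19 and 28, members listed at 0 in wildtype skin at day 16 or 28, and up to 3 genes of each list. Others, such as Krtap5-1, Krtap5-4, Foxn1 and Slc7a11, were named after their values were seen. The lists were type I and type II hair shaft keratins, inner root sheath, hair matrix regulators, cysteine supply and disulfide formation, other cuticle and cortex genes, epidermal keratins, companion layer and wound keratins, and markers of neutrophils, macrophages, melanocytes, skeletal muscle, adipocytes and dermal fibroblasts. Alternatives were other pseudocounts, scalings and filters, each day left out, and the highest member in place of a family sum.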

Additional observations from a re-analysis of the deposited data

Results flagged for a closer look

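From day 19 to day 28 the summed level of the 37 genes moved in opposite directions in the genotypes, by 6.66 in wildtype and -7.72 in hairloss skin, both as log2 of summed FPKM + 1. All 37 members were higher in wildtype skin at day 28 than at day 19, while in hairloss skin 35 were lower and 2 were listed at 0 at both days. The summed difference of hairloss minus wildtype was -2.51 at day 16 and 3.07 at day 19, and 33 of the 37 members were lower at the first and higher at the second. The shares of all genes with the same directions were not taken. These counts include members at or under the floor, 8 in wildtype skin at day 19 and 32 in hairloss skin at day 28. For Krtap5-2 the difference was 1.86 at day 16 and -4.93 at day 28. Each of these contrasts rests on 1 library per genotype and day, and the differences between them were not tested.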

How the results depend on the processing

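Of the results recomputed under the alternatives, 126 values stayed close to those given, 15 moved, 1 reversed, 1 fell under the 2-fold rule and 1 passed it. With a pseudocount of 0.1 the median difference was 3.19 at day 19 and -9.16 at day 28, and with 5 it was 1.3 and -3.97. The members at least 2-fold higher at day 16 numbered 2 with a pseudocount of 0.1, as Krtap5-3 reached 1.33, and 0 with 5, as Krtap5-2 stood at 0.7. Members at least 2-fold lower at day 0 numbered 2 with a pseudocount of 0.1, and 1 when libraries were scaled to an equal sum of coding FPKM without keratins and keratin-associated proteins, a setting chosen after seeing the data. In the limma fit for genotype the median of -1.63 became 0.03 without day 28, and it was -2.17 without day 0, -1.39 without day 16 and -2.84 without day 19. The number of members past an adjusted p of 0.05 was 0 in each limma fit run. Scaling on coding genes used factors of 0.988 to 1.008 and left the counts of members past 2-fold at days 0, 16, 19 and 28 as given. The genotype fit already pairs the 4 wildtype and 4 hairloss libraries by day. No pairing by replicate could be added, since each genotype and day has 1 library. Depth limits the members at or under the floor, 32 of 37 in the hairloss library of day 28, and no replicate gives the spread of a single day.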
